A study of Mus musculus with 60 samples.

Results

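Complex I, NADH:ubiquinone oxidoreductase, is the entry enzyme of the mitochondrial respiratory chain, and most of its subunits are encoded by nuclear genes whose symbols start with Nduf. All protein-coding genes with such a mouse symbol were taken, which gave 47 of the 54352 genes in the deposited count table, where 21818 genes are protein-coding. Of the 47 genes, 37 encode subunits of the complex, 8 are Ndufaf assembly factors, and 2 (Ndufa4 and Ndufa4l2) match by name without being complex I subunits and were kept apart. Another 4 genes with an Nduf symbol are not annotated as protein-coding and were left out. By their place in the enzyme the subunits were split into 10 of the N module, 6 of the Q module, 9 of the proximal membrane arm, 11 of the distal membrane arm, and Ndufab1. The gene usually called Ndufb1 is listed as Ndufb1-ps.

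The study measured bulk messenger RNA by 3′ digital gene expression in 60 libraries from 20 C57BL/6JN mice. Every animal gave triceps muscle and 2 white fat depots, the subcutaneous (scWAT) and the visceral (vWAT), and each tissue had 4 groups of 5 mice. Chow-fed mice received 10% of energy as fat and high-fat diet (HFD) mice 60%, both over 6 weeks. Within each diet 1 group was sedentary and 1 group, here called trained, had voluntary access to a running wheel during the final 3 weeks. All mice were 12 weeks old when tissue was taken, after 6 hours without food and 24 hours with the wheels locked. The strain carries no engineered allele in the labels, and running was voluntary, so the training dose differed by animal and is not given in the sources used here.

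Complex I has a peripheral arm in the matrix and a membrane arm in the inner membrane. The N module at the tip of the peripheral arm binds NADH and takes up its electrons, the Q module below it passes them to ubiquinone, and the membrane arm pumps protons. The membrane arm holds 7 subunits encoded in mitochondrial DNA (mt-Nd1 to mt-Nd6 and mt-Nd4l), so both genomes must supply parts. The 7 nuclear core subunits, Ndufv1 among them, hold the flavin, the iron-sulfur centres and the ubiquinone site, the accessory subunits stabilise the structure, and assembly factors help to build it without staying in it. Oxidative muscle is rich in the complex, and white fat holds fewer mitochondria per cell.

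Total counts were 505336 to 720220 per scWAT library, 580173 to 689060 per vWAT library and 651030 to 744581 per triceps library, and 45 of the 47 genes in each fat depot and 46 in triceps passed the filter on low counts. Ndufa4l2 passed in no tissue and Ndufaf6 only in triceps. The summed markers of adipocytes took 3.78% to 5.75% of counts in vWAT and at most 0.096% in triceps, where skeletal muscle markers took 9.46% to 20.0%. No label names a sequencing batch. Library runs were inferred from the sequential codes in the column names, in blocks of 12 codes because cDNA of 12 wells was pooled. Where the blocks start was a choice made here. A run below means such a block and not a recorded sequencing run. These runs did not cut across the groups evenly. In vWAT, a run of 5 libraries held chow mice only (sedentary 1 to 3, trained 1 and 2), a run of 12 held all groups, and a run of 3 held HFD sedentary mouse 5 and HFD trained mice 4 and 5. The same mice formed a run of 5, a run of 12 and a run of 3 in triceps, where the triceps run of 5 and the vWAT run of 3 fell in the same block of codes, whereas both scWAT runs, of 9 and 11 libraries, held all groups. Reads of foreign tissues differed between these runs. In the vWAT run of 5, all 5 heart markers (Myh6, Myl7, Tnni3, Nppa, Nppb) had reads in every library, summing to 176 to 251 per library, and slow-fibre markers summed to 465 to 613, while in the run of 12 these sums were 0 to 5 and 0 to 7, with Nppa and Nppb at 0. The slow-fibre reads of that run of 5 came from Myl2 (137 to 206), Myl3 (193 to 256) and Tnnc1 (90 to 144). The other slow-fibre markers had few or no reads there: Myh7 0 to 6, Tnni1 0 to 1 and Tnnt1 0 to 2. In the vWAT run of 3, all 14 skeletal muscle markers and all 6 intestine markers had reads in every library, summing to 1900 to 2948 and 144 to 226. In the triceps run of 5, intestine markers summed to 121 to 160 reads and were at 0 in the other triceps libraries. Brain markers summed to 62 to 82 reads in the triceps run of 3 and 1 to 5 in the other triceps libraries, and liver markers to 37 to 69 in the triceps runs of 5 and 3 and 0 to 4 in the run of 12. In scWAT, liver markers summed to 342 to 519 reads in the run of 9 and 15 to 130 in the run of 11. Liver reads also varied within a run, from 71 to 3202 in the vWAT run of 12. For the main counts of called genes, values without these libraries stand beside the result.

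In the chow sedentary mice, complex I genes were higher in triceps than in fat. All 37 subunits were higher in triceps than in vWAT, as were 4 of 7 assembly factors and Ndufa4, so that 42 of 45 tested genes passed an adjusted p of 0.05 (edgeR quasi-likelihood test with the animal as a block, Benjamini-Hochberg over all genes). Over all genes, 29.6% were called higher and 63.4% in either direction. The median log2 difference was 1.79 for the subunits, 0.56 for the assembly factors and −0.16 for all genes. By module the medians were 1.84 for the N module, 1.92 for the Q module, 1.55 for the proximal and 1.58 for the distal membrane arm, and the 7 mitochondrially encoded subunits had a median of 2.39. Without the animals of the vWAT run of 5, which left 2 chow sedentary mice (4 and 5), 40 of 45 genes were called higher.

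The 3 genes with the largest differences between triceps and vWAT were Ndufaf5, Ndufb5 and Ndufa5. Levels per mouse are normalised counts scaled with TMM factors to a library total of 1000000 (CPM), and are listed from mouse 1 to mouse 5. The factors were fitted within each tissue, except for the 2 genes that follow, whose CPM carry the factors of the joint fit over the 3 tissues. Ndufb5, a distal membrane arm subunit, had 1642, 1638, 1834, 1691 and 1575 CPM in triceps and 308, 281, 356, 260 and 197 in vWAT, a log2 difference of 2.60 (SE 0.18, edgeR adjusted p = 3.59e-11). Ndufaf5, an assembly factor that modifies an arginine of Ndufs7, had 153, 145, 102, 156 and 183 CPM in triceps and 15.5, 12.1, 19.2, 10.7 and 14.6 in vWAT, a log2 difference of 3.34 (SE 0.24). In both genes every triceps library lay above every vWAT library. Ndufa5, a Q module subunit, differed by 2.48 (SE 0.18). The 3 smallest differences were in assembly factors: Ndufaf3 at 0.26 (adjusted p = 0.292), Ndufaf2 at 0.28 (adjusted p = 0.216) and Ndufaf7 at 0.52 (adjusted p = 0.0462), and Ndufaf8 at 0.56 (adjusted p = 0.0829) also missed the threshold. Of the genes followed throughout, Ndufs4 differed by 1.79, Ndufv1 by 1.44, Ndufb8 by 1.42, Ndufa9 by 1.56, Ndufa4 by 1.53 and Ndufaf1 by 0.90 (SE 0.26, adjusted p = 0.00518).

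These tissue differences depended in size on the scaling. With libraries scaled to their total counts instead of TMM, the all-gene median moved from −0.16 to −1.14, 32 of 37 subunits were still above 0 with a median of 0.79, 31 members were called higher and 2 lower, and the 2 were assembly factors: Ndufaf2 and Ndufaf3 (−0.71, adjusted p = 0.00212, and −0.73, adjusted p = 0.00387). Ndufaf1 and Ndufaf7, called higher with TMM, were then at −0.085 (adjusted p = 0.777) and −0.46 (adjusted p = 0.0595). Calls over all genes turned from 1859 higher and 2122 lower to 793 higher and 4077 lower. Between the fat depots, 5 subunits were higher in scWAT than in vWAT, where 3.76% of all genes were called higher and 9.13% in either direction: Ndufa1 (0.76, adjusted p = 0.00432), Ndufs1 (0.76, adjusted p = 0.0116), Ndufa5 (0.57), Ndufa6 (0.53) and Ndufs7 (0.59, adjusted p = 0.036). The median over the 45 genes was 0.35. With total-count scaling 3 members were called higher and 1 lower. Total-count scaling changed the calls over all genes from 236 higher and 337 lower to 166 higher and 420 lower. Leaving out the animals of the vWAT run of 5 left 2 chow sedentary mice, 4 and 5. In that fit the 5 called members became 14, with a median of 0.57. Leaving out single chow sedentary mice lowered the count, to 2 without mouse 1 or 3 and to 1 without mouse 4 or 5.

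**Figure D1:**
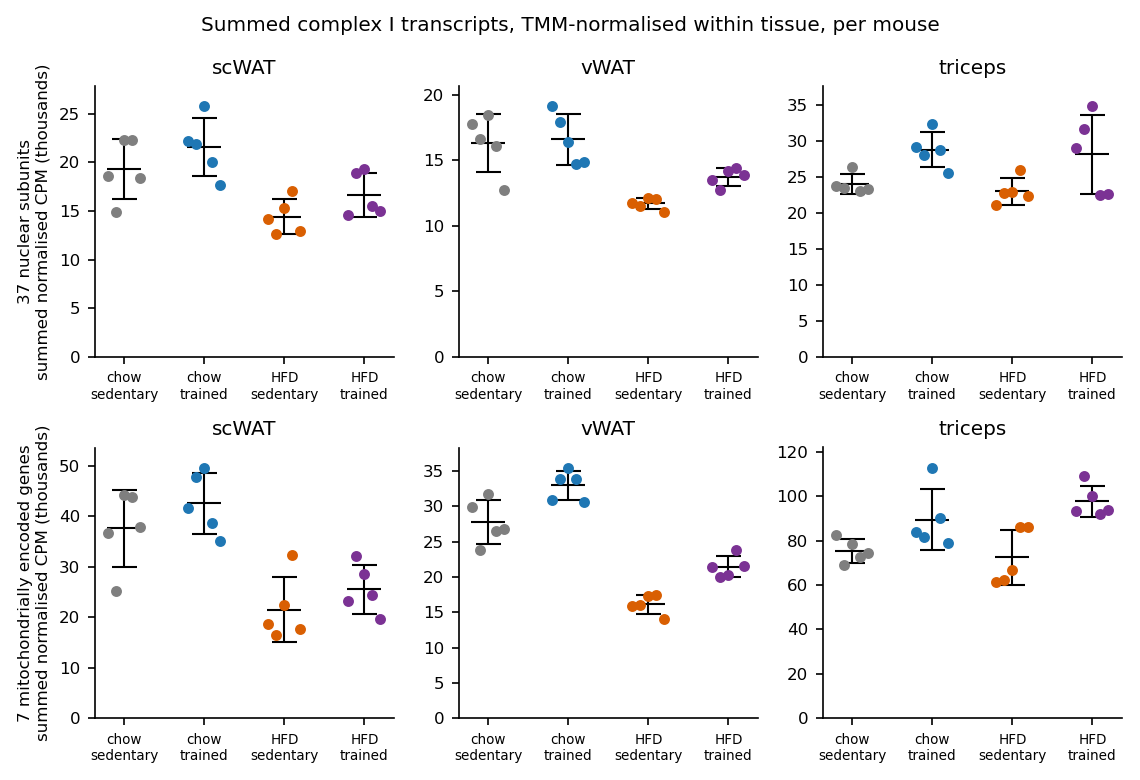
TMM-normalised CPM, summed over the 37 nuclear subunits and over the 7 mitochondrially encoded complex I subunits (y axes, in units of 1000 CPM), in each mouse (points) of the 4 groups of each tissue, with the mean and SD of the 5 mice in black. In vWAT, the chow sedentary mice lie at 12761.2 or above for the nuclear subunits and the HFD sedentary mice at 12148.1 or below.

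The promoters of these genes were searched for known binding motifs, as a description. A part of these motifs in the changes given below was not tested. RefSeq promoters (build GRCm38.p6, 250 bases before to 50 bases after the start) matched 40 of the 47 genes, 32 of them subunits. A binding motif of NRF1, the nuclear respiratory factor that binds many respiratory chain genes, spelled GCGCA, any base N, then GCGC and searched on both strands, was in the promoters of 9 of the 40 genes, 7 of them subunits, against 5.19% of all 27025 genes with a promoter. A motif of YY1, a zinc finger factor, spelled AAGATG followed by GCGG, was in 5 of the 40 against 1.0% of all genes. The shorter ERR-type motif AAGGTCA was in 3 of 40 against 5.38%, and the GABPA motif CCGGAAG in 6 of 40 against 9.93%. The NRF1 matches are shown with 30 bases each, on the gene's strand, with the motif in capitals, since this motif was in more of these genes than the others:
Ndufa5, chr6:24527697-24527726, minus strand: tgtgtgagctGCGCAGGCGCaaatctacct
Ndufa6, chr15:82354249-82354278, minus strand: ccgtggcaccGCGCGTGCGCacgctgaagg
Ndufa8, chr2:36049349-36049378, minus strand: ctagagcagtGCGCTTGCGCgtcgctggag
Ndufa11, chr17:56717692-56717721, plus strand: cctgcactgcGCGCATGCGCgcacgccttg
Ndufb4, chr16:37654371-37654400, minus strand: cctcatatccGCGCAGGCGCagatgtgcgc
Ndufs5, chr4:123718265-123718294, minus strand: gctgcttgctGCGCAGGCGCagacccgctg
Ndufs6, chr13:73328479-73328508, minus strand: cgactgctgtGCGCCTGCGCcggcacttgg
Ndufaf4, chr4:24897960-24897989, plus strand: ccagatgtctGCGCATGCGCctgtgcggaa
Ndufaf5, chr2:140170652-140170681, plus strand: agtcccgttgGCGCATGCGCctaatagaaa

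In some of these sites the letters as printed show the motif read on the opposite strand. Of the 5 YY1 windows, 4 overlapped an annotated coding exon. They are shown for the 3 subunits whose diet or training results follow and for Ndufs6, which also held an NRF1 match:
Ndufa9, chr6:126849096-126849125, minus strand: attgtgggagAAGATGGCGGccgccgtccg
Ndufs4, chr13:114388045-114388074, minus strand: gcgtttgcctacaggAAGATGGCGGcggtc
Ndufs6, chr13:73328433-73328462, minus strand: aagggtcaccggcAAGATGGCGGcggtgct
Ndufs7, chr10:80249463-80249492, plus strand: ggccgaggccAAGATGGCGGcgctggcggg

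How the called subunits divided by these matches is given as counts, with no test. In sedentary vWAT, 4 of the 7 subunits with an NRF1 match were called lower on HFD, against 20 of the 25 without one, and for YY1 the counts were 4 of 4 and 20 of 28. In triceps under HFD, training was followed by a call in 0 of 7 subunits with an NRF1 match and 8 of 25 without, and in 2 of 4 with a YY1 match and 6 of 28 without. Of all genes, 4.15% were called lower in that vWAT contrast and 3.49% higher in that triceps contrast. The calls of both contrasts changed with the library runs and the scaling used, as given below, so these counts hold for the main fit.

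In vWAT of sedentary mice, complex I genes were lower on HFD than on chow across all modules. All 45 tested genes had a negative log2 fold change, from −0.91 to −0.12, and 28 passed the test: 27 of the 37 subunits and Ndufa4. Of all 6990 genes tested, 4.15% were called lower and 8.05% in either direction. The median log2 fold change was −0.48 for the subunits and −0.01 for all genes. In bulk tissue, fewer cells of a type and less RNA per cell cannot be told apart. DESeq2 called the same 28 genes. Without the chow-only run of 5 libraries, 0 complex I genes were called, and their median log2 fold change was −0.29. Within the vWAT run that held all groups, 0 were called as well, with a median of −0.25. Both fits held 2 chow sedentary mice, 4 and 5. The calls and adjusted p values given by module below are from the main fit with all vWAT libraries.

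In the N module, 9 of 10 subunits fell in sedentary vWAT on HFD, with a median of −0.53. Ndufa12, an accessory subunit, had 389, 364, 416, 314 and 248 CPM in chow and 214, 186, 218, 210 and 216 in HFD mice, a fold change of −0.73 (SE 0.14, edgeR adjusted p = 0.000793), and the groups did not overlap. Ndufv1, the core subunit that binds NADH and the flavin, had 291, 243, 275, 199 and 161 CPM in chow and 131, 199, 139, 144 and 129 in HFD mice (−0.65, SE 0.16, adjusted p = 0.0084). HFD mouse 2 lay above the lowest chow mouse, so these groups overlapped. Ndufv2, the core partner of Ndufv1, also fell (−0.73, SE 0.14, adjusted p = 0.000737). Ndufs4, an accessory subunit whose loss causes Leigh-like disease in mice, had 412, 303, 425, 351 and 243 CPM in chow and 232, 220, 239, 243 and 271 in HFD mice (−0.52, SE 0.13, adjusted p = 0.0102), with HFD mouse 5 above chow mouse 5.

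In the Q module 4 of 6 subunits fell, with a median of −0.55. Ndufa5 had 471, 506, 549, 447 and 336 CPM in chow and 282, 267, 290, 299 and 247 in HFD mice (−0.74, SE 0.13, adjusted p = 0.000431), without overlap. Ndufa9, which lies at the junction with the membrane arm, had 266, 213, 218, 196 and 163 CPM in chow and 129, 124, 117, 159 and 155 in HFD mice (−0.62, SE 0.15, adjusted p = 0.00558). Here too the highest HFD mouse lay below the lowest chow mouse. Ndufs7, which holds the last iron-sulfur centre before ubiquinone, fell by 0.63 on the log2 scale (adjusted p = 0.00636), and Ndufs8 by 0.48. Over the whole peripheral arm, 4 of the 7 nuclear core subunits passed the test.

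In the membrane arm, 6 of 9 proximal and 7 of 11 distal subunits fell, both with a median of −0.47. The lowest adjusted p among all members belonged to Ndufb9, a distal subunit, with 617, 656, 775, 668 and 472 CPM in chow and 391, 360, 404, 406 and 340 in HFD mice (−0.75, SE 0.12, adjusted p = 0.000133). Ndufb10, also distal, had 637, 559, 615, 511 and 396 CPM in chow and 342, 303, 310, 300 and 303 in HFD mice (−0.80, SE 0.13, adjusted p = 0.000172). In both genes chow mouse 5 was the lowest chow mouse and still lay above all 5 HFD mice. Ndufb8, a distal subunit whose protein is often blotted as a marker of assembled complex I, had 332, 390, 433, 367 and 277 CPM in chow and 217, 271, 252, 254 and 185 in HFD mice (−0.61, SE 0.15, adjusted p = 0.00782). Of the proximal subunits, Ndufa1, a small subunit encoded on the X chromosome, had 900, 911, 979, 902 and 804 CPM in chow and 635, 625, 627, 639 and 558 in HFD mice (−0.54, SE 0.10, adjusted p = 0.000721). Ndufa10 fell as well (−0.82, SE 0.16, adjusted p = 0.000843). Ndufab1, the mitochondrial acyl carrier protein, which also serves fatty acid synthesis in the organelle, fell by 0.49. Counting over all modules, 18 of the 37 subunits had HFD mice entirely below chow mice, where 3.25% of all genes did.

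**Figure D2:**
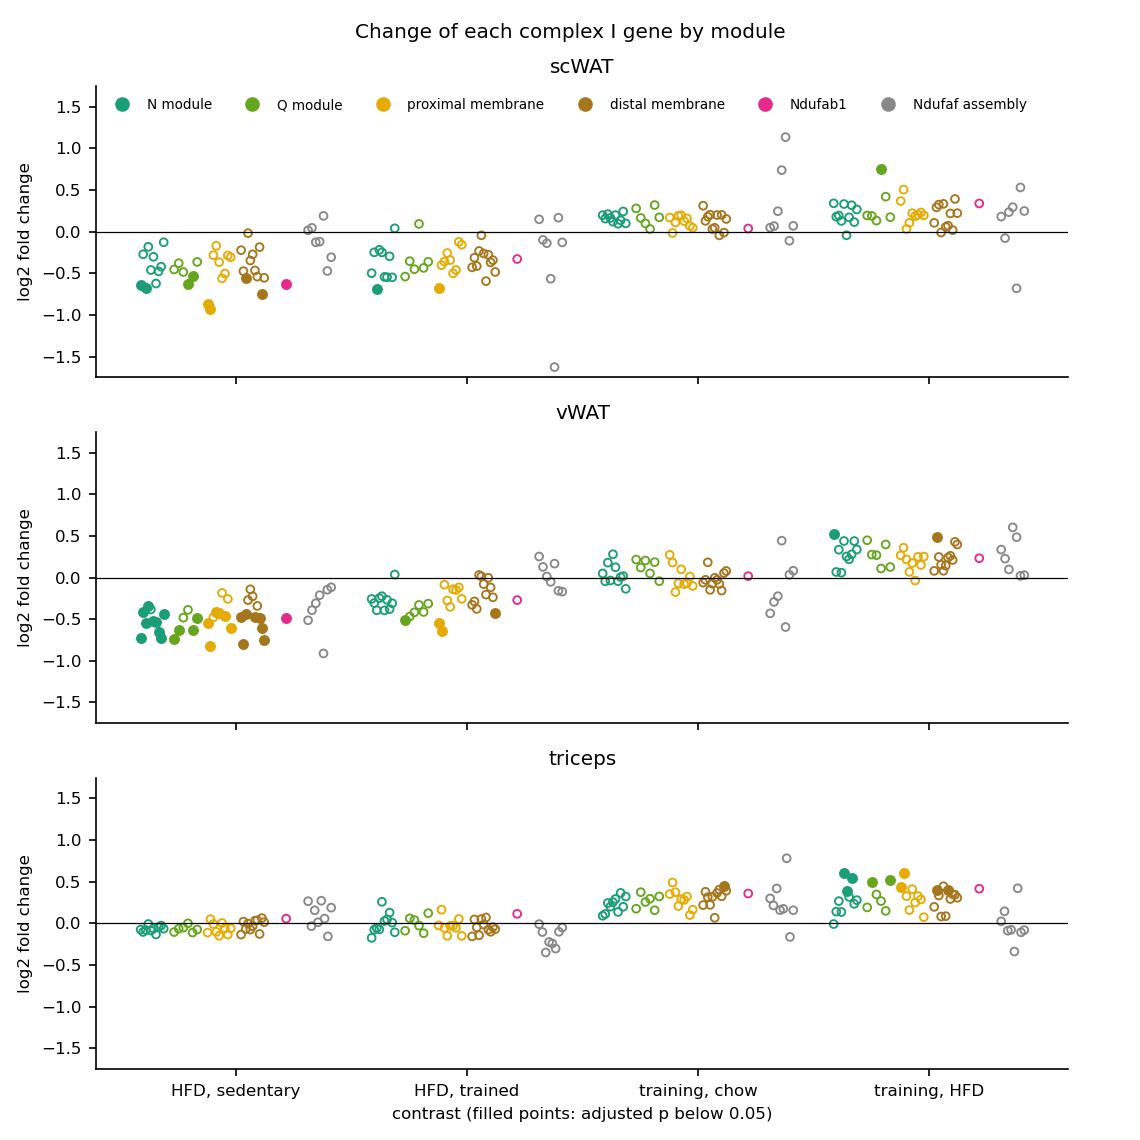
Log2 fold change (y axis) of each nuclear complex I gene (points, coloured by module) in each diet and training contrast (x axis) for the 3 tissues, with filled points for adjusted p below 0.05. In sedentary vWAT all points lie below 0, from −0.91 to −0.12, and the grey assembly factors hold no filled point in any contrast shown (edgeR with TMM scaling).

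The chow libraries of the vWAT run of 5 carried the heart marker, Myl2, Myl3 and Tnnc1 reads. With those 5 libraries left out, the count of called members went from 28 to 0, while 36 of 37 subunits remained below 0 with a median of −0.28. Within the run of 12 the count was also 0, with 36 of 37 subunits below 0 and a median of −0.25. Both fits held 2 chow sedentary mice, 4 and 5. The loss of that run and the loss of animals therefore cannot be told apart. With only chow sedentary mouse 5 left out, the count was 31. When the run was added as a factor, 7 members were called (Ndufa1, Ndufa4, Ndufa5, Ndufa10, Ndufb1-ps, Ndufb9 and Ndufb10) and the subunits' median was −0.30. For Ndufb9 the fold change was −0.58 (SE 0.15, adjusted p = 0.0556) without the run of 5, and for Ndufb10 it was −0.53 (SE 0.15, adjusted p = 0.0762). Without the run of 3 the count was 18.

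The level summed over the 37 subunits was 16323.7 ± 2202.97 TMM-normalised CPM in chow sedentary and 11706.2 ± 436.425 in HFD sedentary vWAT (SD, n = 5 each). The 3 chow sedentary mice of the run of 5 had 16584.4 to 18466.1 and those of the run of 12 had 12761.2 (mouse 5) and 16069.5 (mouse 4), against 11520.7 to 12148.1 in the HFD sedentary mice of the same run of 12. On this scale both chow mice of the run of 12 lay above the HFD sedentary mice of their run. On total counts chow mouse 5 had 12125.7 CPM and lay below these HFD mice, which had 12601.3 to 13123.7, and chow mouse 4 above them. The part of the heart marker, Myl2, Myl3 and Tnnc1 reads in the diet result was not tested beyond these values. Macrophage marker reads also differed between the groups, at 476 to 659 per library in the chow and 850 to 3998 in the HFD group of sedentary mice, and their part in the result was not tested. Scaling to total counts left 9 members called and 35 of 37 subunits below 0 (median −0.28), while the all-gene median moved from −0.01 to 0.19 and the calls over all genes from 273 higher and 290 lower to 680 higher and 143 lower.

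**Figure D3:**
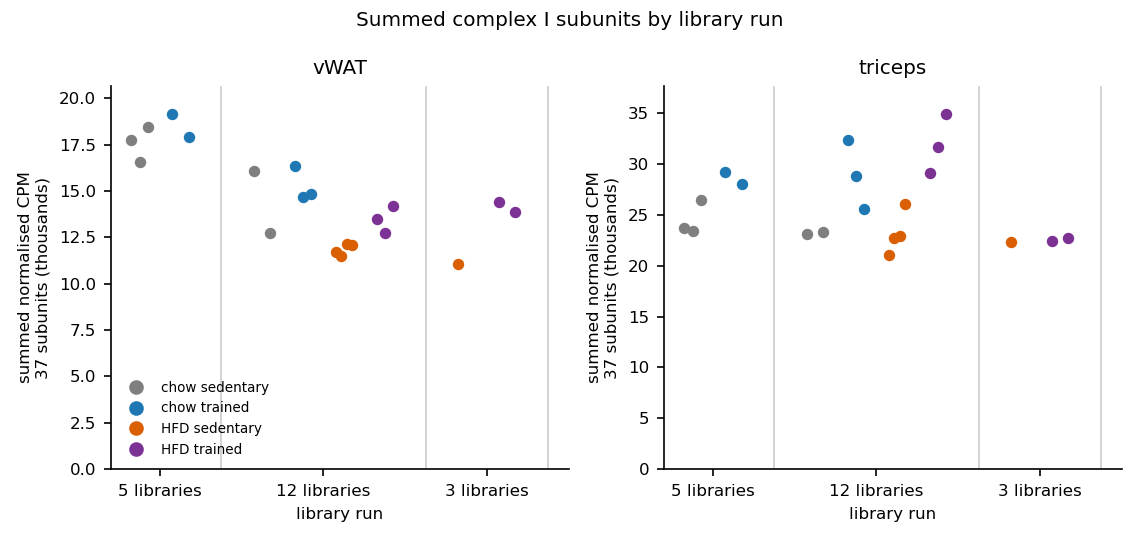
TMM-normalised CPM summed over the 37 subunits (y axes, in units of 1000 CPM) in vWAT and triceps. Each point is a mouse, coloured by group, by inferred library run (x axis). In the vWAT run of 12, the HFD sedentary mice at 11520.7 to 12148.1 lie below the chow sedentary mice at 12761.2 and 16069.5, an order that turns for the lower chow mouse on total counts.

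In trained mice the vWAT difference between diets was smaller, with a median of −0.26 over the 45 genes. Ndufa1, Ndufa5, Ndufa10 and Ndufb9 fell, 4 members, where 1.42% of all genes were called lower and 2.62% in either direction. Ndufa1 had 995, 1111, 1218, 1070 and 1039 CPM in chow trained and 709, 686, 824, 793 and 696 in HFD trained mice (−0.55, SE 0.10, edgeR adjusted p = 0.0011), without overlap. Ndufa5 changed by −0.51 (SE 0.13, adjusted p = 0.0284), also without overlap, and Ndufa10 by −0.64 (SE 0.15, adjusted p = 0.0153), with overlap. Ndufb9 was close to the threshold at −0.43 (adjusted p = 0.0479). Ndufs4 (−0.39, adjusted p = 0.124), Ndufv1 (−0.38, adjusted p = 0.27), Ndufa9 (−0.47, adjusted p = 0.0836), Ndufb8 (−0.24, adjusted p = 0.515) and Ndufa4 (−0.31, adjusted p = 0.133) did not pass. In 7 of the 37 subunits the HFD trained mice lay entirely below the chow trained mice, against 1.83% of all genes. Without the run of 5, Ndufa1 alone was called (−0.58, adjusted p = 0.00538), and Ndufa5 was at −0.31 and Ndufa10 at −0.47. The count of 4 also became 1 without HFD trained mouse 2 or chow trained mouse 2, and 2 without HFD trained mouse 3 or chow trained mouse 1. With total-count scaling it was 1, and the calls over all genes went from 84 higher and 99 lower to 255 higher and 67 lower.

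In scWAT of sedentary mice, 9 subunits fell on HFD: Ndufa1, Ndufa6, Ndufa10, Ndufa12, Ndufab1, Ndufb8, Ndufb11, Ndufs3 and Ndufs7. Of all 7069 genes tested, 2.8% were called lower and 6.35% in either direction. All 37 subunits had a negative fold change, with a median of −0.46 against −0.05 for all genes, and the module medians ran from −0.37 in the proximal to −0.47 in the Q module. The called subunits were spread over the modules, 2 in each of the 4 and Ndufab1.

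Ndufa1 had 1277, 1173, 1765, 1467 and 1428 CPM in chow and 825, 713, 805, 838 and 704 in HFD scWAT of sedentary mice (−0.87, SE 0.16, adjusted p = 0.00167). Ndufa10, a proximal subunit related to nucleoside kinases, had 188, 154, 192, 290 and 232 CPM in chow and 88.3, 92.0, 121, 144 and 113 in HFD mice (−0.92, SE 0.22, adjusted p = 0.0102). Ndufa6, an N module accessory subunit that binds the acyl carrier protein, had 657, 614, 748, 816 and 663 CPM in chow and 458, 384, 425, 569 and 361 in HFD mice (−0.67, SE 0.17, adjusted p = 0.0177). These 3 were the subunits whose groups did not overlap, which 2.32% of all genes did in that direction. Ndufb8 changed by −0.75 (SE 0.19, adjusted p = 0.0199) with overlapping groups. Of the other genes followed throughout, Ndufv1 (−0.48, adjusted p = 0.133), Ndufa9 (−0.38, adjusted p = 0.222), Ndufs4 (−0.30, adjusted p = 0.352) and Ndufaf1 (0.02) did not pass the test.

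Markers of beige fat cells, the thermogenic and mitochondria-rich cells of this depot, differed between these groups. The 5 beige markers summed to 155 to 1015 reads per library in sedentary scWAT on chow and 15 to 81 on HFD. Over all scWAT libraries, Cidea reached 690 and Ucp1 527 reads. The other markers had few reads: at most 44 for Cpt1b, 40 for Elovl3 and 3 for Dio2. With the log beige marker level as a covariate, 0 members were called, 30 of 37 subunits were below 0 and the median was −0.10. Ndufa1 was then at −0.55 (SE 0.22, adjusted p = 0.425). Since the beige level and the diet moved together, the covariate and the diet cannot be told apart. Skeletal muscle markers reached 7.18% of counts in HFD sedentary mouse 4 and 2.98% in chow sedentary mouse 1, and leaving out libraries above 1% left 37 of 37 subunits below 0 with a median of −0.58. Lymph node markers summed to 6 to 1432 reads in chow sedentary and 8 to 25 reads in all HFD mice, and leaving out libraries with over 100 such reads brought the count of called members from 9 to 2 with a median subunit change of −0.53. Within the scWAT run of 11 libraries 2 members were called (median −0.43) and within the run of 9 none were (median −0.47). Scaling to total counts left 4 members called and 33 of 37 subunits below 0 (median −0.28), while the all-gene median moved from −0.05 to 0.14 and the calls over all genes from 251 higher and 198 lower to 534 higher and 108 lower. The count also changed when single mice were left out: it was 2 without HFD sedentary mouse 2 or 5 or without chow sedentary mouse 4, 3 without HFD sedentary mouse 1, and 4 without chow sedentary mouse 3 or 5 or HFD trained mouse 2.

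In trained scWAT, Ndufa1 and Ndufa6 fell on HFD, where 2.01% of all genes were called lower and 5.16% in either direction, and the median over the 45 genes was −0.34. Ndufa1 had 1637, 1811, 1752, 1516 and 1289 CPM in chow trained and 927, 1192, 1092, 958 and 846 in HFD trained mice (−0.67, SE 0.16, adjusted p = 0.015). Ndufa6 had 867, 872, 922, 763 and 625 CPM in chow trained and 445, 624, 577, 442 and 425 in HFD trained mice (−0.69, SE 0.17, adjusted p = 0.0183). In neither gene did the groups overlap, though for Ndufa6 the gap between 624 and 625 was narrow. The count was 1 without HFD trained mouse 1 or 4 and 0 without HFD trained mouse 5. It was also 0 with the beige covariate and without the libraries above 1% of muscle markers, which in chow trained mice 3, 4 and 5 reached 10.1%. With total-count scaling it was 0 as well, and the calls over all genes went from 223 higher and 142 lower to 711 higher and 104 lower.

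**Figure D4:**
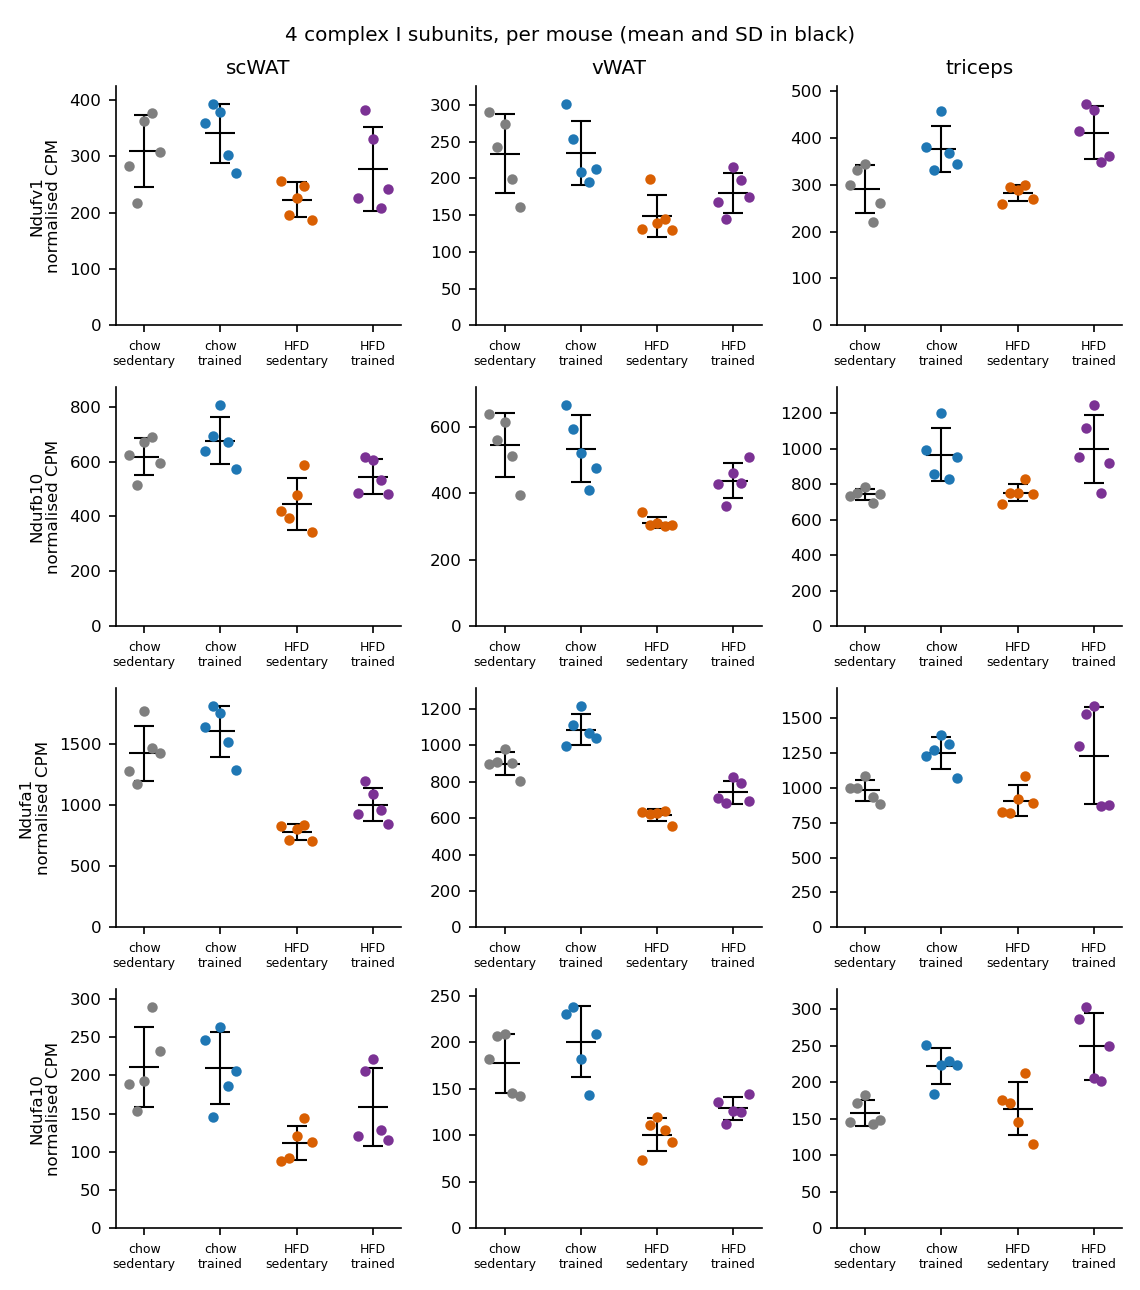
Normalised CPM (y axes, each from 0) of Ndufv1, Ndufb10, Ndufa1 and Ndufa10 in each mouse (points) of the 4 groups, with the mean and SD of the 5 mice in black, in the 3 tissues. Ndufa1 in scWAT lies at 1173 to 1765 in sedentary mice on chow and 704 to 838 on HFD. For Ndufv1 in triceps, HFD trained mice 4 and 5 lie below HFD trained mice 1 to 3.

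Whether the diet effect differed between the fat depots was tested directly. No member was called in the difference of the HFD effects between scWAT and vWAT, in sedentary mice (1.68% of all genes called; 0 members at an unadjusted p under 0.05) or in trained mice (0.542% called; 1 member at an unadjusted p under 0.05). DESeq2 was not run on this comparison. The median differences were 0.08 and −0.05. The 37 subunits were below 0 in both depots in sedentary mice, and across these subunits the 2 depots' fold changes had a Pearson correlation of 0.441 and a Spearman correlation of 0.44, given as a description, since genes are not independent and the same animals gave both tissues.

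Few complex I genes were called with training in fat. In vWAT of HFD mice, Ndufa12 and Ndufb10 rose, where 1.22% of all genes were called higher and 3.09% in either direction, and the median over the 45 genes was 0.25. Ndufa12 had 309, 274, 312, 300 and 303 CPM in HFD trained mice against the 186 to 218 of HFD sedentary mice given above (0.52, SE 0.14, adjusted p = 0.0301). Ndufb10 had 428, 362, 460, 430 and 508 CPM in HFD trained mice against 300 to 342 in HFD sedentary mice (0.49, SE 0.13, adjusted p = 0.0363). In these 2 genes, and in 11 of the 37 subunits in all, the trained mice lay entirely above the sedentary mice, against 2.25% of all genes. Both calls were lost within the run of 12 (Ndufa12 at 0.52, adjusted p = 0.103; Ndufb10 at 0.40, adjusted p = 0.293), and 8 members were called with the run as a factor. The count was 0 without HFD sedentary mouse 1, 2, 4 or 5 or HFD trained mouse 1, 3, 4 or 5, 1 without HFD sedentary mouse 3, and 4 without chow sedentary mouse 5. With total-count scaling it was 0, and the calls over all genes went from 85 higher and 131 lower to 62 higher and 167 lower.

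In scWAT of HFD mice, Ndufs3 rose with training, where 0.707% of all genes were called higher and 1% in either direction. Ndufs3, a Q module core subunit, had 51.4, 53.5, 77.5, 53.5 and 66.7 CPM in HFD sedentary and 87.0, 112, 131, 96.2 and 84.9 in HFD trained mice (0.75, SE 0.18, adjusted p = 0.0343), without overlap. It was not called when any of HFD sedentary mice 1, 2, 4 and 5 or HFD trained mice 2, 3 and 4 was left out, nor with the beige covariate (0.56, adjusted p = 0.304). HFD trained mice 2 and 3, which had 598 and 370 beige marker reads against 26 to 77 in mice 1, 4 and 5, also had the highest Ndufs3 levels of their group. The median over the 45 genes was 0.20. On chow, training was followed by 0 calls among the members in both depots. In scWAT 0% of all genes were called (edgeR; 1 member and 377 genes at an unadjusted p under 0.05; DESeq2 called 3 genes, no member), and the median was 0.15. In vWAT 0.587% were called (1 member at an unadjusted p under 0.05; DESeq2 called 0 members), and the median for the subunits was 0.01.

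In triceps, 10 of 46 members rose with training on HFD and 1 on chow, and the difference between the diets is given with the interaction. The 10 on HFD were Ndufv1, Ndufs1, Ndufs4, Ndufs8, Ndufa9, Ndufa1, Ndufa10, Ndufb5, Ndufb10 and Ndufa4. Of all 4410 genes tested, 3.49% were called higher and 5.58% in either direction. The called subunits were 3 of 10 in the N module, 2 of 6 in the Q module, 2 of 9 in the proximal and 2 of 11 in the distal membrane arm. In all, 36 of 37 subunits had a positive fold change, with a median of 0.32 against −0.01 for all genes, whereas 0 of the 8 assembly factors passed and their median was −0.08.

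Ndufv1 had 259, 295, 288, 299 and 269 CPM in HFD sedentary and 414, 473, 460, 348 and 361 in HFD trained triceps (0.54, SE 0.12, adjusted p = 0.0049). It was the 1 subunit whose trained mice lay entirely above the sedentary mice, where 2.68% of all genes did. Ndufs1, the largest core subunit of the N module, had 229, 289, 317, 420 and 431 CPM in HFD sedentary and 530, 562, 541, 426 and 496 in HFD trained mice (0.60, SE 0.14, adjusted p = 0.00655). Ndufa10 had 175, 171, 146, 212 and 115 CPM in HFD sedentary and 286, 303, 206, 201 and 250 in HFD trained mice (0.60, SE 0.14, adjusted p = 0.00577). In both genes trained mouse 4 was below the highest sedentary mouse, and for Ndufa10 trained mouse 3 was as well. Ndufa9 changed by 0.50 (SE 0.13, adjusted p = 0.0145) and Ndufs8, the core subunit with 2 iron-sulfur centres, by 0.52 (adjusted p = 0.0131). Ndufs4 had 409, 449, 527, 631 and 572 CPM in HFD sedentary and 596, 768, 800, 634 and 582 in HFD trained mice (0.38, SE 0.12, adjusted p = 0.0447). Ndufb8 missed the threshold at 0.34 (adjusted p = 0.0654).

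HFD trained mice 4 and 5, the trained libraries of the run of 3, had the lowest summed subunit levels of their group. These were 22467.4 and 22701.5 TMM-normalised CPM beside 22312.6 in the HFD sedentary mouse of the same run, whereas in the run of 12 HFD trained mice had 29084.9 to 34886 and HFD sedentary mice 21070 to 26051.2. On total counts the 2 trained mice, at 22496.6 and 22724.2, lay below that sedentary mouse, at 23477.3. With the run of 3 left out, 28 members were called and the subunits' median was 0.46. Within the run of 12 there were 22 calls with a median of 0.47, and with the run as a factor 21, and each of these sets held the 10 members named above. With the chow run of 5 left out, 5 of the 10 were called (Ndufa9, Ndufa10, Ndufs1, Ndufs8 and Ndufv1). The count also moved with single HFD mice: it was 3 without sedentary mouse 1 or trained mouse 3, 4 without sedentary mouse 3 or trained mouse 2, 5 without sedentary mouse 2, 16 without sedentary mouse 4 or trained mouse 4, and 17 without trained mouse 5.

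Other parts of the triceps libraries moved with training too. All mitochondrially encoded transcripts took 23.9% to 33.6% of counts in HFD sedentary and 35.8% to 43.2% in HFD trained mice, and skeletal muscle markers 13.9% to 20.0% and 9.46% to 14.3%. Under scaling to total counts the all-gene median moved from −0.01 to −0.19, Ndufv1 and Ndufs1 were the members called higher, Ndufaf5 was called lower, and 28 of 37 subunits were above 0 with a median of 0.12. The calls over all genes turned from 154 higher and 92 lower to 79 higher and 344 lower. The direction of most subunits thus held under both scalings and the count of calls did not.

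On chow, Ndufb8 was the member that rose with training in triceps, where 0.431% of all genes were called higher and 0.726% in either direction. It had 356, 478, 502, 464 and 415 CPM in chow sedentary and 590, 603, 563, 685 and 588 in chow trained mice (0.45, SE 0.11, adjusted p = 0.0396), without overlap. DESeq2 called 7 members, and 22 had an unadjusted p under 0.05. In 10 of the 37 subunits the trained mice lay entirely above the sedentary mice, against 2% of all genes, among them Ndufs4, with 491 to 574 CPM against 599 to 770 (0.29, adjusted p = 0.278). Ndufv1 (0.37, adjusted p = 0.152) and Ndufa9 (0.37, adjusted p = 0.173) did not pass. The median over the members was 0.29, as on HFD. The call of Ndufb8 was lost without HFD trained mouse 1, chow sedentary mouse 1, 4 or 5, or chow trained mouse 1, 2, 4 or 5, and 4 members were called without chow sedentary mouse 3. Without the run of 3 there were 8 calls, and with the run as a factor 2. Within the run of 12 or without the run of 5 there were 0, with 2 chow sedentary mice (4 and 5) in these fits. Total-count scaling also gave 0 calls, with 33 of 37 subunits above 0, and turned the calls over all genes from 19 higher and 13 lower to 9 higher and 35 lower.

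HFD itself was followed by no call among the members in triceps. In sedentary mice 0% of all genes were called (edgeR; 0 members and 201 genes at an unadjusted p under 0.05; DESeq2 called 0), and in trained mice 0% (0 members and 306 genes at an unadjusted p under 0.05; DESeq2 called 0). The median over the members was −0.05 in both.

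The change of the diet effect with training, the interaction, had 0 members called in each tissue, with 0.0143% of all genes called in vWAT and 0% in scWAT and in triceps. The members with an unadjusted p under 0.05 were 7 in vWAT, 2 in scWAT and 1 in triceps, and DESeq2 called 0 members in each. In vWAT 42 of the 45 members had a positive interaction, with a median of 0.21. So the smaller count of lower subunits in trained than in sedentary vWAT, 4 against 28 members, was not shown to be a difference between the trained and sedentary mice.

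The assembly factors, read apart from the subunits, had 0 calls in the diet and training contrasts of the 3 tissues by edgeR with TMM scaling. The exceptions in other fits were in Ndufaf5, called lower in trained scWAT on HFD by DESeq2 and in triceps with training on HFD under total-count scaling (−0.53, adjusted p = 0.0347). Most had low counts and wide spread, and a p that misses the threshold does not show that they did not change. Ndufaf1, which binds early membrane arm intermediates, had 26.1, 47.9, 28.9, 33.7 and 21.8 CPM in chow sedentary and 22.2, 26.2, 21.1, 25.4 and 16.2 in HFD sedentary vWAT (−0.51, SE 0.23, edgeR adjusted p = 0.192), with overlapping groups. In trained vWAT its diet change was 0.25 (adjusted p = 0.7). Ndufaf5 had 20.5, 16.5, 25.7, 14.4 and 20.1 CPM in chow sedentary and 6.95, 10.2, 9.86, 16.01 and 8.09 in HFD sedentary vWAT (−0.91, adjusted p = 0.113). It had the most negative fold change of all 45 genes there and 1 HFD mouse inside the chow range. In scWAT the same gene varied widely, from 20.0 to 195 CPM in chow trained and from 14.5 to 100 in HFD sedentary mice, and its fold change between diets in trained mice was −1.62 by edgeR (adjusted p = 0.122) and −1.65 by DESeq2 (adjusted p = 0.0345). Skeletal muscle markers took 0.0344% to 10.1% of counts in chow trained scWAT, 0.0478% to 7.18% in HFD sedentary and 0.024% to 0.203% in HFD trained scWAT. Ndufaf5 was higher in triceps than in vWAT, and the part of muscle reads in its scWAT values was not tested. Ndufaf7, a methyltransferase of the matrix, changed by −0.47 in sedentary scWAT on HFD (adjusted p = 0.153). Ndufaf6, tested in triceps alone, had 7.55 to 40.8 CPM over the triceps libraries and a training change of 0.78 on chow (adjusted p = 0.196). The medians of the assembly factors on HFD in sedentary mice were −0.12 in scWAT and −0.31 in vWAT, beside −0.46 and −0.48 for the subunits.

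Ndufa4 was first described as a complex I subunit and is now placed in complex IV. It had 2019, 2154, 2371, 2210 and 1888 CPM in chow sedentary and 1501, 1442, 1634, 1375 and 1321 in HFD sedentary vWAT, and fell (−0.55, SE 0.11, adjusted p = 0.000931) with no overlap. Without the run of 5 its change was −0.49 (SE 0.13, adjusted p = 0.0747). In sedentary scWAT it had 2782, 2306, 3963, 2975 and 2417 CPM on chow and 2230, 1947, 1833, 1992 and 1547 on HFD (−0.60, adjusted p = 0.0612), again with no overlap. In triceps it had 2340, 2714, 2784, 3143 and 2956 CPM in HFD sedentary and 3633, 3997, 4547, 3179 and 3016 in HFD trained mice (0.40, SE 0.11, adjusted p = 0.0264), where trained mouse 5 lay below sedentary mouse 4. Its training change on chow was also 0.40 (adjusted p = 0.0748), from 2682 to 3119 CPM up to 3191 to 4021. Ndufa4l2, its hypoxia-inducible relative, had at most 17.0 CPM in any library and at most 4.71 in triceps, and was not tested.

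The mitochondrially encoded complex I subunits moved in the same direction as the nuclear ones in the contrasts with most calls. In sedentary vWAT on HFD all 7 fell, with a median of −0.94. The core membrane subunit mt-Nd2 had 3569, 2822, 3310, 3215 and 3103 CPM in chow and 1838, 2057, 2053, 1840 and 1859 in HFD mice (−0.73, adjusted p = 3.81e-05), and mt-Nd3 changed by −1.22 (adjusted p = 1.3e-07). Every chow mouse lay above every HFD mouse for mt-Nd2. Without the vWAT run of 5, 5 of the 7 were called with a median of −1.04, and within the run of 12 also 5 of 7 with a median of −0.93. In trained vWAT on HFD all 7 fell (median −0.76), and training in HFD vWAT was followed by a rise of mt-Nd2 (0.39, adjusted p = 0.0425), mt-Nd3 (0.65, adjusted p = 0.00318) and mt-Nd4 (0.51, adjusted p = 0.00965). Within the run of 12 mt-Nd2 was at 0.24 (adjusted p = 0.486), and with total-count scaling at 0.32 (adjusted p = 0.076). Its diet change in sedentary vWAT was −0.53 with total-count scaling (adjusted p = 0.00095). In scWAT on HFD 4 of 7 fell in sedentary mice (median −0.90) and 3 of 7 in trained mice (median −0.76). In HFD triceps mt-Nd1 (0.39), mt-Nd4 (0.55) and mt-Nd6 (0.58) rose with training, and on chow 0 of 7 passed, with a median of 0.23. These triceps values are from TMM scaling. For mt-Nd2 in HFD triceps, training gave 0.36 with TMM (adjusted p = 0.0524) and 0.18 with total-count scaling (adjusted p = 0.247). Total-count values of the other mitochondrially encoded genes are not given here.

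The other complexes of the chain gave a measure of what complex I shared with them. In sedentary vWAT on HFD, 2 of 4 complex II genes fell (median −0.48), 7 of 9 of complex III (−0.51), 10 of 10 of complex IV (−0.51) and 10 of 15 of ATP synthase (−0.50), beside −0.48 for the complex I subunits. Without the run of 5 libraries 0 genes of these 4 lists were called, and the medians were −0.41, −0.28, −0.31 and −0.21, beside −0.28 for the complex I subunits. In sedentary scWAT the counts were 0 of 4, 5 of 9, 6 of 10 and 0 of 15, with medians of −0.51, −0.65, −0.68 and −0.35. In HFD triceps, training was followed by a rise of 4 of 4, 4 of 9, 7 of 10 and 8 of 15, with medians of 0.53, 0.43, 0.49 and 0.41 beside 0.32 for the complex I subunits. These triceps values are from the main fit with TMM scaling, and total-count values of the 4 lists are not given here. Of all genes, 4.15% and 2.8% were called lower on HFD in sedentary vWAT and scWAT, and 3.49% higher with training in HFD triceps. Among these lists the complex I subunits had the lowest median in HFD triceps with training, which was not tested as a difference. Of 11 complex I assembly factors without an Nduf symbol in the table, 8 were tested in fat and 6 in triceps, and edgeR called 0 in any diet or training contrast.

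Of the 8 transcriptional regulators of mitochondrial genes listed, 5 were tested in fat and 3 in triceps, and none was called in a diet or training contrast. Ppargc1a, the coactivator that raises respiratory chain expression, changed by −0.59 in sedentary vWAT on HFD (SE 0.48, adjusted p = 0.564) and by 0.37 with training in HFD triceps (SE 0.20, adjusted p = 0.313), and Esrra had too few counts to be tested. Cs, citrate synthase, a common measure of mitochondrial content, had 363, 365, 379, 357 and 233 CPM in chow sedentary, 222, 227, 230, 224 and 192 in HFD sedentary and 306, 282, 309, 300 and 368 in HFD trained vWAT. It fell on HFD (−0.63, SE 0.13, adjusted p = 0.00231) and rose with training on HFD (0.52, SE 0.13, adjusted p = 0.026). Without the run of 5 these were −0.43 (adjusted p = 0.19) and 0.51 (adjusted p = 0.0254), and within the run of 12 they were −0.37 (adjusted p = 0.324) and 0.40 (adjusted p = 0.305). All HFD sedentary mice were below all mice of the other 2 groups. In scWAT Cs changed by −0.53 on HFD in sedentary mice (adjusted p = 0.0682) and in HFD triceps by 0.38 with training (adjusted p = 0.0615). With total-count scaling the triceps change was 0.19 (adjusted p = 0.385).

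**Figure D5:**
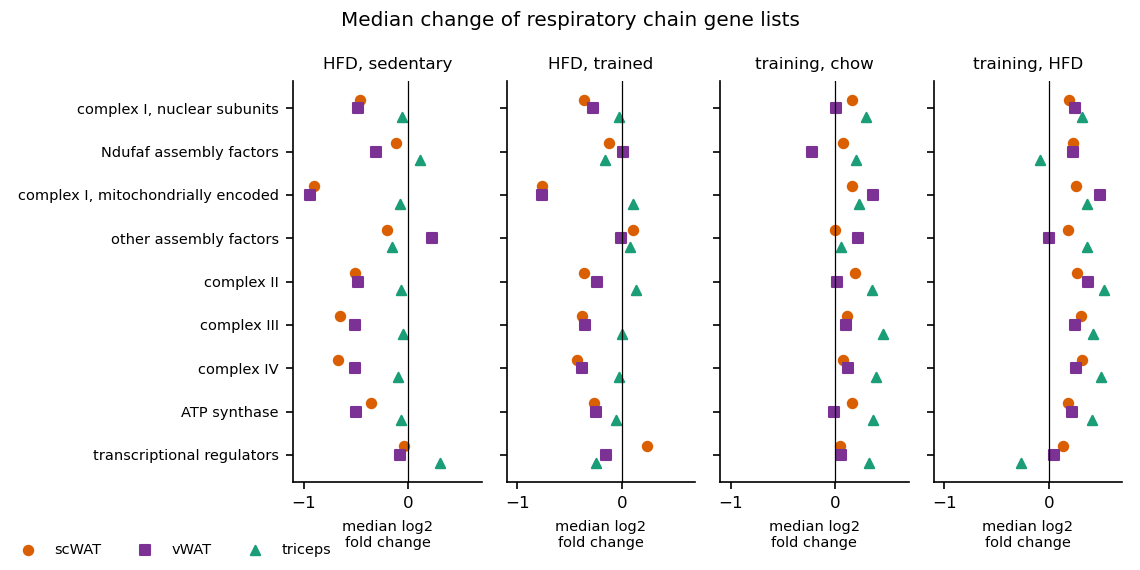
Median log2 fold change (x axes) of 9 gene lists (rows) in the 4 diet and training contrasts (panels) for scWAT, vWAT and triceps (symbols). In HFD, sedentary, the nuclear complex I subunits lie at −0.46 in scWAT and −0.48 in vWAT, close to the other complexes and nearer 0 than the mitochondrially encoded subunits at −0.90 and −0.94.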

How the data were processed

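Per the labels' protocols, cDNA made by template switching was pooled from 12 wells and tagmented. Salmon 0.14.2 and the mm10 build are named in the submitters' processing notes. The authors deposited 1 estimated count per gene and library, rounded to whole numbers, and a log2 column per library, which per the file headers and values is log2 of CPM plus 1 and served only to check the unit. How strand and PCR copies were handled is not given in the labels used here, and reads shared with pseudogene copies cannot be placed.

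Counts were fitted per tissue over its 20 libraries (fat depots jointly, and the 3 tissues of chow sedentary mice jointly, with the animal as a block) by edgeR 4.0.16 in R 4.3.3: TMM factors, filterByExpr by group, robust quasi-likelihood test, Benjamini-Hochberg over all genes tested. "Called" means an adjusted p below 0.05, and every adjusted p is from this test unless DESeq2 1.42.0 is named. On simulated counts for the HFD effect in sedentary mice, true log2 changes of 1 were called in 52.1% (scWAT), 64.2% (vWAT) and 65.3% (triceps). Smaller changes and effects of library runs were not simulated. No pair of libraries was identical (120 pairs compared). Per-mouse and summed levels are TMM-normalised CPM, with factors fitted within a tissue unless total counts or the joint fit is named. Separate animals are the replicates. Replicate numbers were not taken to pair samples within a tissue, since not every same-numbered pair correlated above 0.1.

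The members, lists and tests were chosen with earlier results of these data known. Named are, per tissue and contrast, the called members of lowest adjusted p, up to 3 in each direction, the followed genes (Ndufs4, Ndufv1, Ndufb8, Ndufa9, Ndufa4, Ndufa4l2, Ndufaf1), in the tissue comparison the 3 largest and 3 smallest differences, and called genes listed by name. Members named beyond these were chosen after their values were seen. Alternatives were DESeq2, no filter, total-count scaling, a replicate block, library run as a factor or within a run, marker covariates, libraries above a marker level left out, and each replicate left out. Leaving out the runs of 5 and 3 libraries was added after seeing the data.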

Additional observations from a re-analysis of the deposited data

Results flagged for a closer look

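Of 89 groups of 5 values checked for a single distant value, 4 held one, and chance gives about 1 in 20. All 4 were in vWAT of sedentary mice. Ndufa12 in HFD mouse 2 had 186.38 normalised CPM against 209.46 to 218.21 in the other 4 mice. Ndufb10 in HFD mouse 1 had 341.99 against 300.18 to 309.72. Ndufv1 in HFD mouse 2 had 199.49 against 129.44 to 144.08. The summed subunits in chow mouse 5 stood at 12125.7 CPM on total counts against 15646.9 to 16798.6 in the other chow sedentary mice. With TMM scaling the same mouse had 12761.2 against 16069.5 to 18466.1.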

How the results depend on the processing

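The counts are of called members, and the cause of a change in them was not tested. Some of these fits also held fewer libraries. In vWAT and triceps, the fits within the run of 12 or without the run of 5 held 2 chow sedentary mice. In vWAT on HFD, sedentary, 28 became 7 with a run factor, 0 within the run of 12, 0 without the run of 5, 18 without the run of 3 and 9 with total-count scaling. In trained vWAT on HFD, 4 became 1 with a run factor, within the run of 12, without the run of 5 or with total-count scaling, 2 without the run of 3 and 8 in DESeq2. For training in HFD vWAT, 2 became 8 with a run factor, 4 without the run of 5, and 0 within the run of 12, without the run of 3 or with total-count scaling. In scWAT on HFD, sedentary, 9 became 4 with total-count scaling or no filter, 2 in the run of 11 or without lymph node reads, and 0 with the beige covariate or in the run of 9. In trained scWAT on HFD, 2 became 8 in DESeq2 and 0 with total-count scaling, the beige covariate, in either run, or without libraries above 1% of muscle markers. The 1 training call in HFD scWAT became 0 in the same 5 fits and with the muscle covariate. In HFD triceps with training, 10 became 21 with a run factor, 22 in the run of 12, 28 without the run of 3, 5 without the run of 5, 6 with no filter and 3 with total-count scaling. On chow, 1 became 7 in DESeq2, 8 without the run of 3, 2 with a run factor, and 0 with no filter, total-count scaling, in the run of 12 or without the run of 5. With no filter, 5 became 2 for scWAT against vWAT, and 0 became 1 for the depot difference in trained mice. Leaving out the animals of the vWAT run of 5, which left 2 mice, gave 14 for scWAT against vWAT. Ndufaf1 turned to −0.085 and Ndufaf7 to −0.46 in triceps against vWAT under total-count scaling, which moved the all-gene median.

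With each replicate left out in turn, the counts ran from 20 to 31 for vWAT on HFD, sedentary, 1 to 5 trained, and 0 to 4 for training on HFD. They ran from 2 to 13 for scWAT on HFD, sedentary, 0 to 3 trained, and 0 to 1 for training on HFD. In triceps they ran from 3 to 17 for training on HFD and 0 to 4 on chow, and they were 41 to 42 for triceps against vWAT and 1 to 4 for scWAT against vWAT. Contrasts with 0 calls stayed at 0 in these fits. Deviations of same-numbered mice had median correlations of 0.133 in scWAT (−0.187 to 0.559), 0.034 in vWAT and 0.029 in triceps over 30 pairs each, against −0.057, −0.011 and −0.006 over 120 other pairs. Not every pair was above 0.1, so the numbers were not taken as a pairing. With the replicate block, scWAT on HFD had 14 calls in sedentary and 6 in trained mice, and other counts stayed within 1.5 times. At these depths low genes such as the assembly factors had wide intervals, and small changes in them were not detectable.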
